A study of Mus musculus with 56 samples.

Results

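The cytosolic ribosomal protein genes encode the proteins of the ribosome that translates nuclear genes, and they were followed here in mouse CD4 T cells before and after activation. They were chosen by symbol in the count table of the second of the study's experiments: symbols starting with Rpl or Rps and a digit, together with Rplp0, Rplp1, Rplp2 and Rpsa. The 10 ribosomal S6 kinase symbols and 6 pseudogene symbols that met this pattern were left out, and of the 88 symbols that remained, 84 had at least 10 counts in total and are the members, out of 24421 symbols in the table. The members were 50 large-subunit and 34 small-subunit symbols. Of these, 77 are called core here, and 7 are paralogues or other proteins, namely Rpl7l1, Rpl22l1, Rpl36al, Rpl39l, Rps4l, Rps27l and Rps19bp1, the last of which binds Rps19 and is not itself a ribosomal protein. The 4 symbols below 10 counts were Rpl10l, Rpl26 and Rps27rt with 0 counts and Rpl3l with 5.

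The study asked how the number of cells around a T cell affects its early path to memory. Naive CD4 T cells from the spleens of C57BL/6 mice, sorted as CD4+ CD44- CD62L+, were activated with beads carrying antibodies to CD3 and CD28 in medium with no added cytokines. In this experiment 3 libraries came from naive cells at 0 h, and cells started at 1000000 cells/ml (high concentration) or 62500 cells/ml (low concentration) were sorted as CD4+ at 18, 30, 48 and 72 h, with 3 libraries for each group except 2 for the low concentration at 72 h. Further cultures started at 250000 cells/ml were sorted at 48 and 72 h into CD4+ CD44+ cells with CD62L, the lymph node homing receptor, on their surface (CD62L+) or without it (CD62L-), with 3 libraries for each. All groups share the strain, the organ and, apart from the naive cells, the beads. Whether the libraries of a group came from separate mice or cultures is not in the labels, so a p-value here covers just the scatter among the libraries at hand.

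A ribosome holds a single copy of nearly every ribosomal protein, and cells make the proteins of both subunits in matched amounts, largely by controlling how much of their mRNA is translated. These mRNAs start with a C and a run of pyrimidines, the 5′ terminal oligopyrimidine (TOP) motif, through which Larp1 and mTOR signalling hold them back or release them to ribosomes. Resting T cells are small and translate little, and activation is followed by growth, new ribosomes and division. Several members also act outside the ribosome or have paralogues made in particular cells, so the members need not move as a block.

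The start of the transcript is shown for several members because the TOP motif lies there. Each line gives 10 bases before and 18 bases from an annotated transcription start, 5′ to 3′ on the strand of the gene, from the RefSeq promoter table of build GRCm38.p6, and the TOP motif was searched as a C followed by at least 4 C or T letters. Capitals mark this run from the annotated start on where the start is such a C, and otherwise the longest one that begins, after a letter other than C or T, within 10 bases of the start. Other stretches of this kind are left in lower case. The positions were Rps6 chr4:86857350-86857377 (-), Rpl28 chr7:4792955-4792982 (+), Rpl35 chr2:39005114-39005141 (-), Rps18 chr17:33955648-33955675 (-), Rpl27a chr7:109519185-109519212 (+), Rps27l chr9:66946076-66946103 (+), Rps16 chr7:28350679-28350706 (+) and Rpl7l1 chr17:46782639-46782666 (-).
Rps6: gaagtcgggcCTCTTTTTCgtgacgcct
Rpl28: tctcgtgtctCTCTTTCCgtctccggcc
Rpl35: ccgccctttcCTCTTTCTCTCgaaccag
Rps18: cacttccgctCTCTCTTCCacaggaggc
Rpl27a: cgtgagCTCCTCCCTTTTCCCTTTCTgc
Rps27l: cctccccgccgCCTCTatcccggaagtt
Rps16: ttctgtcgtgacgtagcactcaatgcgc
Rpl7l1: gctgcgcaagcgcagtagctgaagcacc
In Rps6, Rpl28, Rpl35 and Rps18 the annotated start was such a C, with C or T letters also directly before it. In Rpl27a the run covered the start, and in Rps27l it began just after it. No such run began within 10 bases of the start in Rps16 and Rpl7l1, which says only that these letters are not in this window. Promoters were found for 63 of the 84 members, and 13 of the 63 (20.6%) had such a C at an annotated start, against 813 of 27025 genes in the table (3.01%). Searched on the sense strand for runs that begin, after a letter other than C or T, within 10 bases on either side, the motif was found in 28 members (44.4%) and in 26.0% of all genes.

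The 38 libraries held 587118 to 3359875 counts and 9523 to 11829 detected genes each. The T cell markers Cd3d, Cd3e, Cd3g, Cd4, Lck, Cd2 and Cd28 had counts in every library. Cd8a had 7 counts in all, and the NK cell markers Ncr1 and Klrb1c, the B cell marker Ms4a1 and 7 red cell and platelet markers had 0. Summed B cell markers reached at most 14.9 CPM (counts scaled to 1000000 per library after TMM normalization) and myeloid markers 27.1 CPM, while the 4 CD8 T and NK cell markers, in which all but the 7 counts of Cd8a came from Cd8b1, summed to 13.1 to 96.2 CPM. The part of these markers in the results was not tested. Sums of the CD8 T and NK cell, B cell and myeloid markers are given below beside comparisons whose groups did not overlap in them. The T cell markers summed to 4734 to 5353 CPM in naive and 1552 to 3791 CPM in activated libraries. Several compared groups did not overlap in these T cell sums either, and they are not repeated below. Titles carry a second number, 1 or 2, whose meaning the labels do not give. It is 1 for every naive, 18 h and 72 h high-concentration library and 2 for every 30 h, 48 h high-concentration and 72 h low-concentration library, so in comparisons between these sets it and the condition cannot be told apart. In the study's other experiment, 18 sorted libraries with a count table of their own, the members made up 0.583 to 1.12% of the counts.

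The members took a large share of all counts, highest in naive cells. In the naive libraries they made up 38.6, 45.0 and 41.6% of the counts, and in the 35 libraries of activated cells 24.7 to 33.9%, so the naive libraries lay above all others. At 18 h the share was 30.0, 32.2 and 29.2% at the high concentration and 31.9, 33.9 and 32.9% at the low. At 30 and 48 h all 12 unsorted libraries lay between 27.6 and 30.3%. At 72 h the concentrations parted: the share was 33.7, 32.2 and 32.7% at the high concentration and 25.1 and 25.4% at the low, with no overlap. The sorted cells held 27.3 to 28.9% at 48 h and 24.7 to 28.3% at 72 h, and their CD62L+ and CD62L- libraries overlapped at both times. These shares describe the libraries and carry no test. They are shares of counts from cDNA loaded in equal amounts, and they depend on how reads were counted. Amounts per cell were not measured. In such bulk samples, fewer cells with much of these mRNAs, less of them per cell and more of other mRNAs per cell cannot be told apart.

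**Figure D1:**
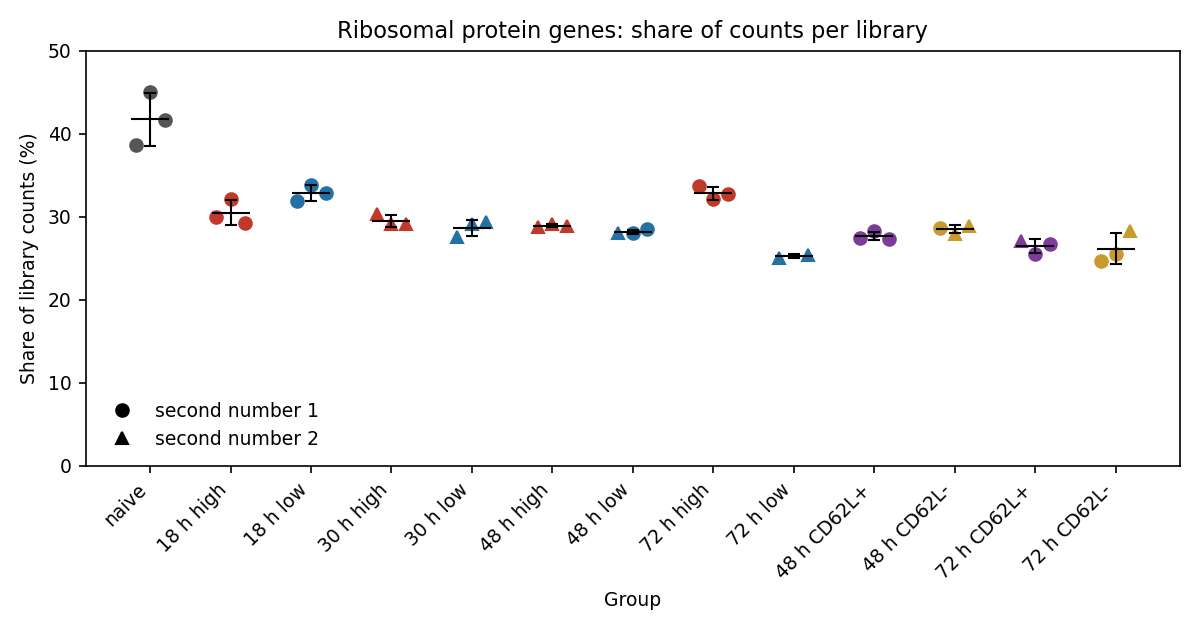
Share of library counts (%, y axis) taken by the 84 members in each library of the 13 groups (x axis); black lines show the group mean and SD, circles and triangles the second number of the title. The naive libraries lie highest (38.6 to 45.0%), and at 72 h the high-concentration libraries (32.2 to 33.7%) lie above the low-concentration ones (25.1 and 25.4%).

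Within that share the large subunit held 21.2% and the small subunit 20.6% of counts in naive cells, and 17.9% and 15.0% at 72 h at the high concentration (group means). The 2 subunits were closest in naive cells, and the large one held more in every group. Among the members with the most counts were Rplp1, Rps19, Rps18 and Rpl4. At the other end, Rpl30 had 29 counts in the whole table, Rps27 95, Rpl39l and Rps4l 189 each and Rpl34 248, although Rpl30, Rps27 and Rpl34 are core proteins of every ribosome. Ribosomal protein genes have many processed pseudogenes and near-identical copies, and no source used here states how reads shared between copies were counted, so the counts of such members are uncertain. Rpl5, Rpl15 and Rpl21 were low as well, with means of 32.5, 27.2 and 3.48 CPM in naive cells, and the same uncertainty may hold for them. Rpl30, Rps27, Rpl39l and Rps4l fell below the filter on low counts, which left 80 members tested (48 large-subunit, 32 small-subunit). Over the 13 groups, the range of a member's mean log2 CPM was smallest for Rpl37 (0.47), Rpl23 (0.51), Rpsa (0.58), Rpl9 and Rpl3 (0.59 each) and Rps19 (0.63). It was widest for Rps27l (3.99), Rps14 (2.95), Rps16 (2.93), Rpl34 (2.70), Rpl35 (2.68) and Rpl19 (2.44). Rpl37 lay between 4293 and 8126 CPM in all 38 libraries.

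**Figure D2:**
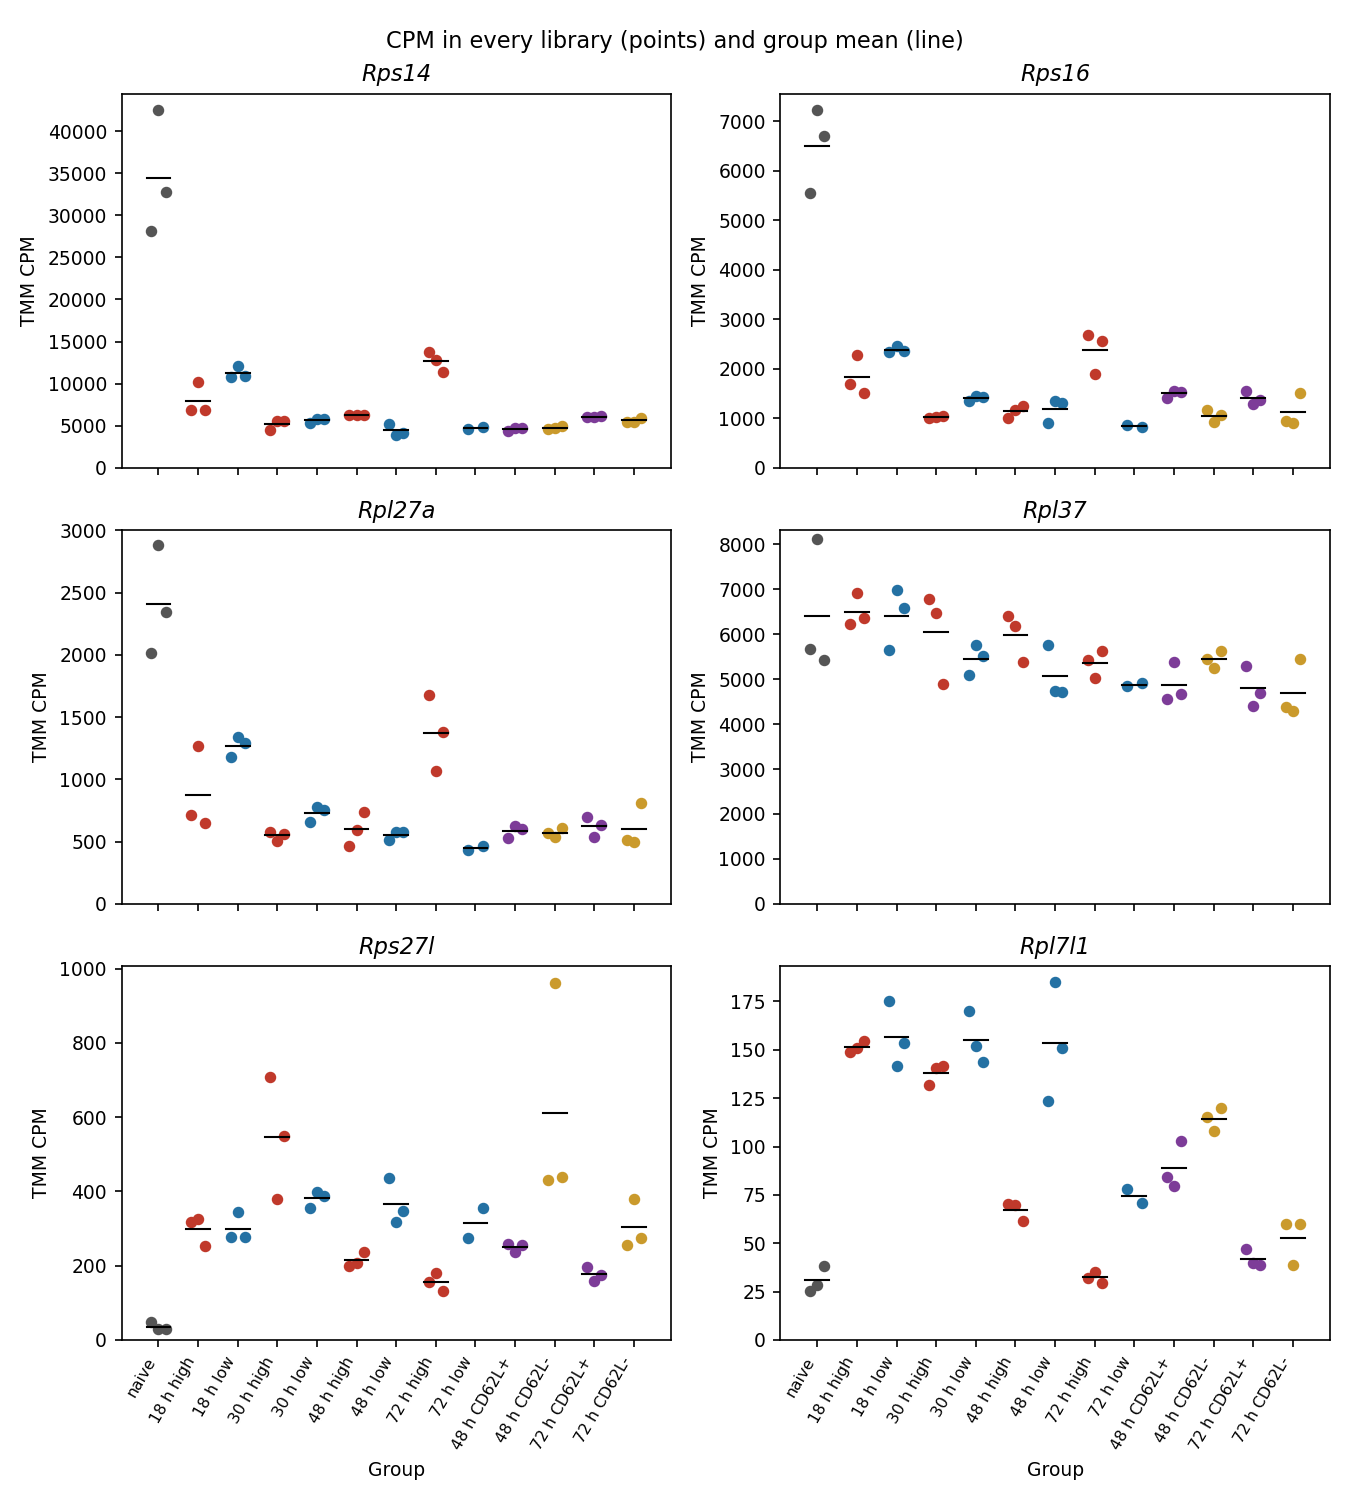
CPM after TMM scaling (y axis, from 0) of 6 members in every library of the 13 groups (x axis); points are libraries, coloured by naive, high, low, CD62L+ and CD62L- groups, and lines are group means. Rps14, Rps16 and Rpl27a are highest in naive cells and higher at 72 h in the high-concentration than in the low-concentration libraries, Rpl37 stays between 4293 and 8126 CPM, and Rps27l and Rpl7l1 have their lowest means in naive cells and the next lowest at 72 h at the high concentration.

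Activation split the members. At 18 h, both concentrations averaged, 38 of the 80 tested members were lower than in naive cells and 19 were higher at an adjusted p (edgeR's quasi-likelihood test, Benjamini-Hochberg adjustment over the 9239 genes tested) below 0.05. Among all genes tested 65.9% passed the test, 33.6% lower and 32.3% higher, so the members exceeded the background among the lower genes and stayed under it among the higher ones. The median over members was -0.23 on the log2 scale, beside 0.00 over all genes. All these libraries carry the second number 1. Without TMM scaling, that is with library totals alone, the median of all genes was 0.20 and that of the members -0.01, with 23 members higher and 33 lower. The summed CD8 T and NK cell markers moved with this comparison, from 33.9 to 37.2 CPM in naive libraries to 68.0 to 96.2 CPM at the high and 47.3 to 62.8 CPM at the low concentration at 18 h. Their part in the members' changes was not tested. In the small subunit 18 of 32 members fell and 6 rose, and in the large subunit 20 of 48 fell and 13 rose.

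Rps14, a protein of the platform of the small subunit, fell most among the members. Its CPM was 28176, 42468 and 32766 in the naive libraries, 6893, 10190.3 and 6819.5 at 18 h at the high concentration and 10831, 12122 and 10905 at the low (log2 difference -1.86 ± 0.11 (SE), adjusted p = 1.4e-20). Every 18 h library lay below every naive one. Rps16, whose tail reaches the tRNA in the decoding region, had 5554, 7228 and 6700.0 CPM in naive cells and 1696, 2277, 1508, 2333, 2467 and 2361 CPM in the 6 libraries at 18 h (log2 difference -1.64 ± 0.13 (SE), adjusted p = 8.5e-16). Rps15, of the head of the small subunit, fell from 15329, 22824 and 17082 CPM to 5429, 7273, 4816, 7533, 8571 and 7743 CPM (log2 difference -1.43 ± 0.12 (SE), adjusted p = 4.9e-15). The 18 h and naive libraries did not overlap for either gene. The other small-subunit members that fell included Rps29, Rps28, Rps21, Rps7, Rps20, Rps3a1, Rps9, Rps10, Rps13, Rps18, Rps19 and Rpsa, with log2 differences of -1.10 to -0.42.

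In the large subunit the acidic stalk that recruits elongation factors fell together: the differences were -1.35 for Rplp1, -1.19 for Rplp2 and -0.59 for their anchor Rplp0 (adjusted p = 3.5e-14, 5.6e-13 and 1.1e-06). Rpl19, which forms a bridge between the subunits, fell by 1.21 and Rpl27a by 1.19 on the log2 scale. Rpl13a, which is also part of an interferon-induced brake on translation, fell by 1.17, and Rpl11, which can bind Mdm2 when ribosome assembly fails, by 0.45. The remaining large-subunit members that fell included Rpl36, Rpl35, Rpl13, Rpl22, Rpl12, Rpl28, Rpl8, Rpl17, Rpl35a, Rpl27, Rpl18 and Rpl10, at -0.86 to -0.31.

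The largest rises at 18 h came from the members outside the core. Rps27l, a paralogue of Rps27 that p53 induces, rose from 48.6, 29.9 and 28.2 CPM to 319, 325, 254, 278, 343 and 278 CPM (log2 difference 3.10 ± 0.25 (SE), adjusted p = 7.3e-13). Rpl7l1, a paralogue of Rpl7 that joins maturing large subunits, rose from 25.5, 28.6 and 38.3 CPM to 149, 151, 155, 175, 142 and 153 CPM (log2 difference 2.31 ± 0.17 (SE), adjusted p = 2.7e-17). Rps19bp1, which binds Rps19 and the deacetylase Sirt1, was at 62.5, 67.8 and 57.9 CPM in naive cells and 157, 212, 208, 163, 183 and 196 CPM at 18 h (log2 difference 1.57 ± 0.17 (SE), adjusted p = 3e-11). None of the 3 had overlapping naive and 18 h libraries.

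Among the core members that rose, Rpl36a was at 404, 519 and 714 CPM in naive cells and 1743, 1702, 1841, 1334, 1378 and 1354 CPM at 18 h (log2 difference 1.50 ± 0.21 (SE), adjusted p = 3.1e-07). Rps27a, made as a fusion to ubiquitin, was at 846, 1237 and 1004 CPM and then at 2811, 2869.8, 2872, 2349, 2756 and 2661 CPM (log2 difference 1.40 ± 0.17 (SE), adjusted p = 2.8e-09). Both were separate from the naive libraries in every 18 h library. The other members that rose included Rpl34, Rpl39, Rpl15, Rps24, Rps2, Rpl31, Rpl36al, Rpl4, Rpl37rt, Rpl7a, Rpl7, Rpl24 and Rpl23, at 0.26 to 1.37, of which Rpl34 rests on 248 counts in the whole table. Rps6, the target of the S6 kinases after T cell receptor and mTOR signalling, did not pass the test (log2 difference 0.01 ± 0.14 (SE), adjusted p = 0.98), nor did Rpl5 (log2 difference 0.05 ± 0.27 (SE), adjusted p = 0.89) or Rps4x (log2 difference 0.23 ± 0.18 (SE), adjusted p = 0.27).

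**Figure D3:**
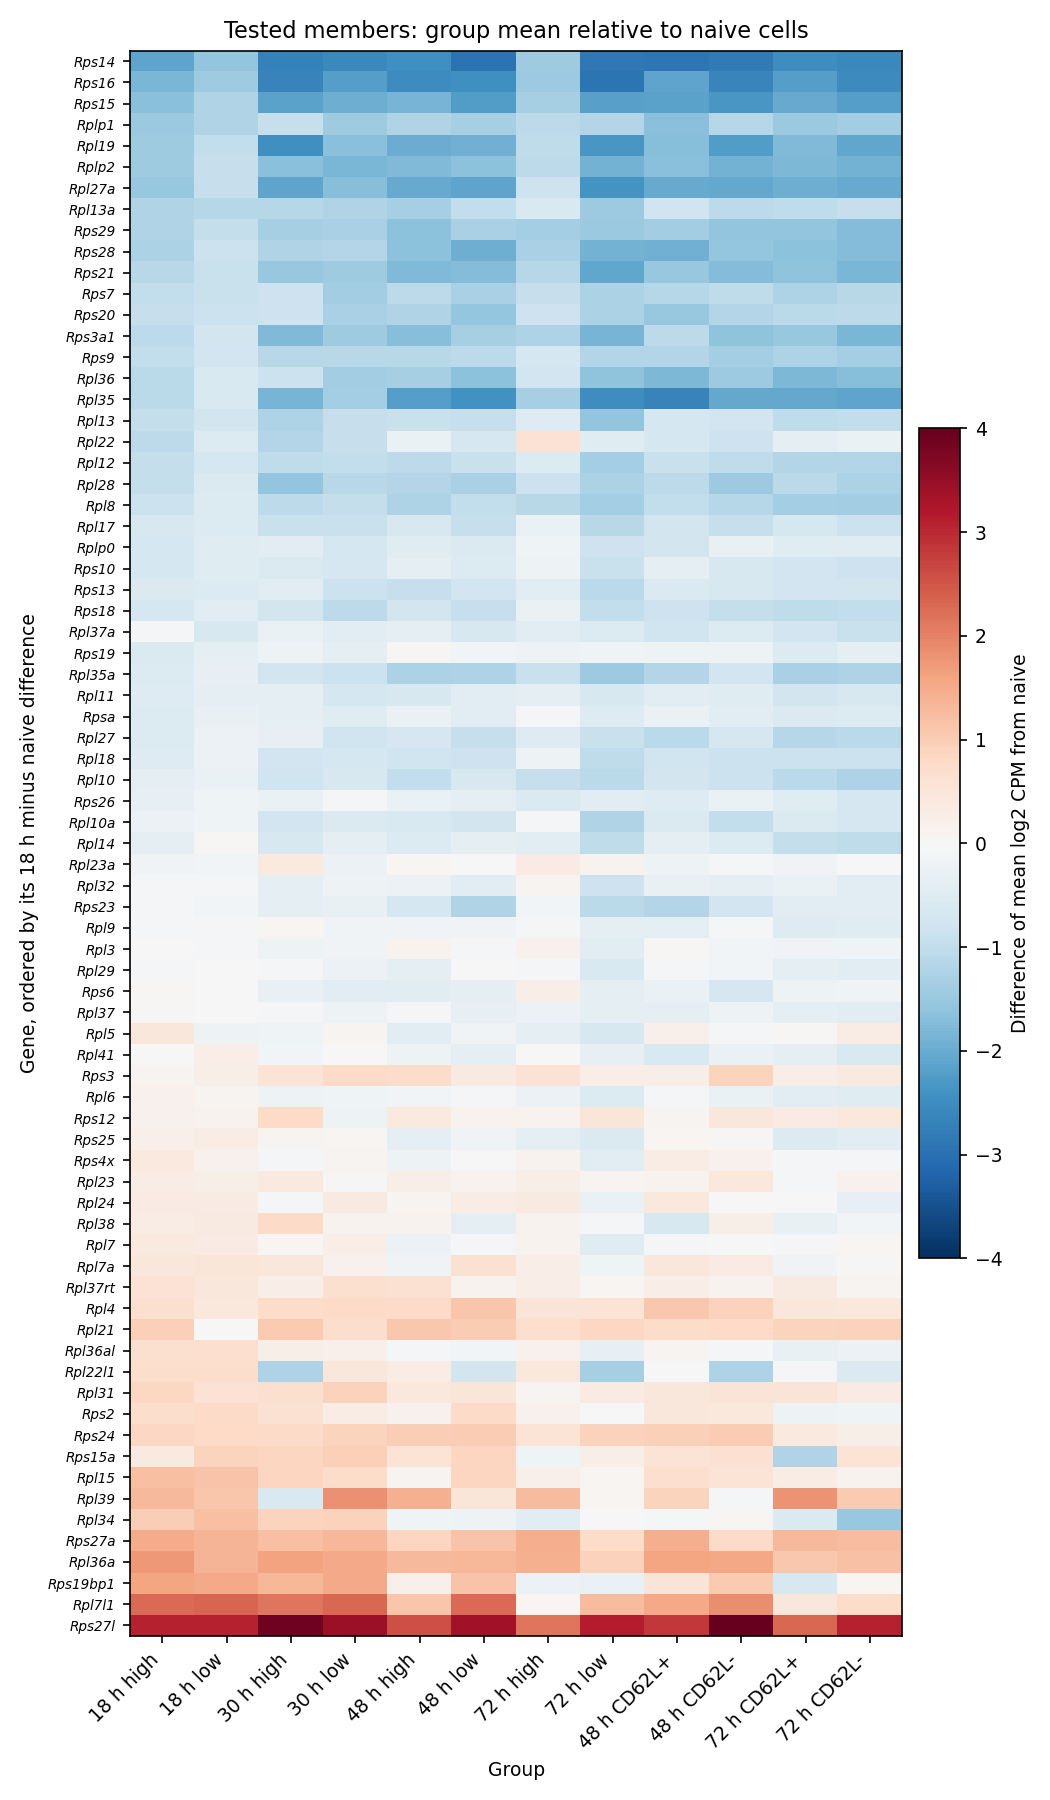
Mean log2 CPM of 75 of the 80 tested members (rows, ordered by the 18 h minus naive difference) in the 12 groups of activated cells (columns), as the difference from the naive mean; red is higher and blue lower than in naive cells. Rps14, Rps16 and Rps15 at the top are lower in every activated group and least so at 72 h at the high concentration or at 18 h at the low, and Rps27l at the bottom is higher in every activated group.

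Between 18 and 30 h more members fell than rose. With both concentrations averaged, 25 of 80 members were lower at 30 h and 1 was higher, beside 10.6% lower and 13.9% higher among all genes (24.6% in all), and the median was -0.18 for members and 0.01 for all genes. Rps14 fell further, to 4507, 5508 and 5612 CPM at the high and 5370.5, 5752 and 5799 CPM at the low concentration (log2 difference -0.81 ± 0.09 (SE), adjusted p = 1.6e-09). Rps16 fell to 997, 1019, 1041, 1348, 1447 and 1438 CPM (log2 difference -0.80 ± 0.11 (SE), adjusted p = 1.4e-07). Both were below all 18 h libraries. Rpl19 fell to 1047, 1392, 1077, 1999, 2033 and 1933 CPM (log2 difference -0.86 ± 0.12 (SE), adjusted p = 5.4e-07), again with no overlap. Rps27l was the member that rose, to 707, 380.3, 548, 356, 398 and 389 CPM (log2 difference 0.60 ± 0.16 (SE), adjusted p = 0.0058). All 18 h libraries have the second number 1 and all 30 h libraries the second number 2, so time and this number cannot be told apart here, and Rps27l had an adjusted p of 0.45 with the number as a term. Rpl22l1 was also called lower (-1.07), but its libraries overlapped, and its call was lost in 2 of 12 fits that left out 1 library each, without 18 h low replicate 2 or 30 h high replicate 3 (adjusted p = 0.050 and 0.051).

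From 30 to 48 h at the high concentration, 11 of 80 members fell and 5 rose, beside 13.3% lower and 16.7% higher among all genes (30.1% in all). The summed CD8 T and NK cell markers were at 37.5 to 63.5 CPM at 30 h and 21.9 to 32.3 CPM at 48 h. Of the 4 largest falls 3 were of members outside the core, and the other was Rpl34, with 248 counts in the whole table. Rps27l was at 707, 380.3 and 548 CPM at 30 h and 199, 207 and 238 CPM at 48 h (log2 difference -1.34 ± 0.23 (SE), adjusted p = 2.6e-05), Rps19bp1 at 161, 123 and 199 and 60.5, 75.3 and 83.8 CPM (log2 difference -1.12 ± 0.18 (SE), adjusted p = 3.2e-06). Rpl7l1 was at 132, 140.4 and 142 CPM and then 70.5, 69.9 and 61.5 CPM (log2 difference -1.04 ± 0.17 (SE), adjusted p = 1.7e-06). None of these overlapped between the times. Rpl22, whose loss blocks the development of alpha-beta T cells, rose from 31.0, 23.5 and 25.8 to 49.5, 55.3 and 48.7 CPM (log2 difference 0.95 ± 0.23 (SE), adjusted p = 0.00099). Rpl39, which lines the exit tunnel for the new protein chain, rose from 120.3, 245 and 109 to 426, 519 and 997 CPM (log2 difference 2.03 ± 0.49 (SE), adjusted p = 0.0024), with a wide spread within each time. With 1 library left out, calls were lost for the following members, given with the log2 difference over all libraries in square brackets: Rpl34 [-1.52] in 4 of 6 (highest adjusted p = 0.20, without 30 h high replicate 2), Rpl19 [0.45] in 4 of 6 (highest adjusted p = 0.17, without 30 h high replicate 1) and Rpl22l1 [1.48] in 2 of 6 (highest adjusted p = 0.11, without 30 h high replicate 3), and 9 members in place of 16 were called without 30 h high replicate 3. Without TMM scaling 9 members were higher and 7 lower.

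At the low concentration the same interval gave 2 members higher and 4 lower of 80, beside 5.73% higher and 3.55% lower among all genes (9.28% in all). The CD8 T and NK cell markers summed to 30.0 to 35.4 CPM at 30 h and 13.2 to 22.4 CPM at 48 h. The B cell markers summed to 3.00 to 3.31 and 7.82 to 12.9 CPM. Rpl35, which sits at the mouth of the exit tunnel, fell from 1576, 1924 and 1836 to 1024, 745 and 783 CPM (log2 difference -1.06 ± 0.20 (SE), adjusted p = 0.00040). Rps23, a protein of the decoding centre, fell from 1532, 1828 and 1704 to 998, 872 and 831 CPM (log2 difference -0.91 ± 0.17 (SE), adjusted p = 0.00023). Neither overlapped between times. Rps2 and Rpl7a were called higher and Rps28 and Rpl31 lower, but with 1 library left out calls were lost for Rps2 [0.49] in 4 of 6 (highest adjusted p = 0.14, without 48 h low replicate 3), Rpl7a [0.44] in 3 of 6 (highest adjusted p = 0.15, without 48 h low replicate 3), Rps28 [-0.76] in 5 of 6 (highest adjusted p = 0.16, without 48 h low replicate 3) and Rpl31 [-0.44] in 6 of 6 (highest adjusted p = 0.16, without 30 h low replicate 2). The count, 6 with every library, was 2 without 30 h low replicate 2, 48 h low replicate 2 or 48 h low replicate 3, 3 without 30 h low replicate 1 and 12 without 48 h low replicate 1, and it was 3 higher and 3 lower both with DESeq2 and with TMM factors computed without the members.

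From 48 to 72 h more members rose than fell at the high concentration and more fell than rose at the low one, and the difference between these changes was not tested. At the high concentration 27 of 80 members rose and 1 fell, beside 11.5% higher and 12% lower among all genes (23.5% in all), with a median of 0.22 for members and 0.01 for all genes. At the low concentration 0 members rose and 21 fell, beside 14.2% higher, 11.6% lower and 25.8% either way among all genes (edgeR's quasi-likelihood test, with 0 higher also by DESeq2 and at an unadjusted p below 0.05), with medians of -0.21 and 0.01. The libraries at the high concentration have the second number 2 at 48 h and 1 at 72 h, so the number and the time cannot be told apart there. Without TMM scaling, 22 members rose and 7 fell at the high concentration. The summed myeloid markers were at 0 to 0.840 CPM at 48 h and 1.72 to 11.1 CPM at 72 h at the high concentration. At the low concentration they were at 0 to 1.73 and 2.50 to 2.95 CPM.

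Among the members that rose at the high concentration, Rpl27a, a large-subunit protein, was at 463, 596 and 735 CPM at 48 h and 1675, 1067 and 1383 CPM at 72 h (log2 difference 1.20 ± 0.19 (SE), adjusted p = 7.1e-06). Rps16 was at 999, 1162 and 1252 and 2679.7, 1892 and 2558 CPM (log2 difference 1.06 ± 0.16 (SE), adjusted p = 1.2e-06), and Rps14 at 6268, 6227 and 6298 and 13779, 12806 and 11333 CPM (log2 difference 1.01 ± 0.13 (SE), adjusted p = 1.2e-07). Each of the 3 genes was higher in all 72 h than in all 48 h libraries. The other members that rose included Rpl19, Rpl35, Rpl22, Rpl13a, Rplp2, Rps6, Rps21, Rpl18, Rps23, Rpl36, Rps27a, Rps15, Rpl10a, Rps13, Rpl12, Rps18, Rps3a1, Rpl7a, Rpl29, Rps9, Rpl32 and Rplp0, with log2 differences of 0.32 to 0.98. The member that fell was Rpl7l1, to 32.1, 35.3 and 29.6 CPM (log2 difference -1.05 ± 0.19 (SE), adjusted p = 4.3e-05), which overlapped the level of naive cells.

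At the low concentration Rps19bp1 fell from 108, 149.6 and 163 CPM at 48 h to 51.3 and 53.1 CPM at 72 h (log2 difference -1.43 ± 0.22 (SE), adjusted p = 1.3e-06), and Rpl7l1 from 124, 185 and 151 to 78.2 and 70.8 CPM (log2 difference -1.04 ± 0.19 (SE), adjusted p = 2.5e-05). Rps2, at the mRNA entry of the small subunit, fell from 8622, 10384 and 11251 to 5536 and 5932 CPM (log2 difference -0.81 ± 0.17 (SE), adjusted p = 0.00021), and Rpl4, which lines the exit tunnel, from 9539.6, 12648 and 12826 to 7585 and 7887 CPM (log2 difference -0.59 ± 0.15 (SE), adjusted p = 0.0017). For none of these did the times overlap. Rpl15 was also called (-0.82), and the call was lost in 5 of 5 fits that left out 1 library, with an adjusted p of up to 0.21 without 72 h low replicate 2. The count, 21 with every library, was 9 without that library, 10 without 72 h low replicate 1 or 48 h low replicate 3 and 11 without 48 h low replicate 2, where a lone 72 h library was assumed to vary like the other groups. Within the second number 2, which holds 1 of the low-concentration libraries of 48 h, 2 members were called lower.

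**Figure D4:**
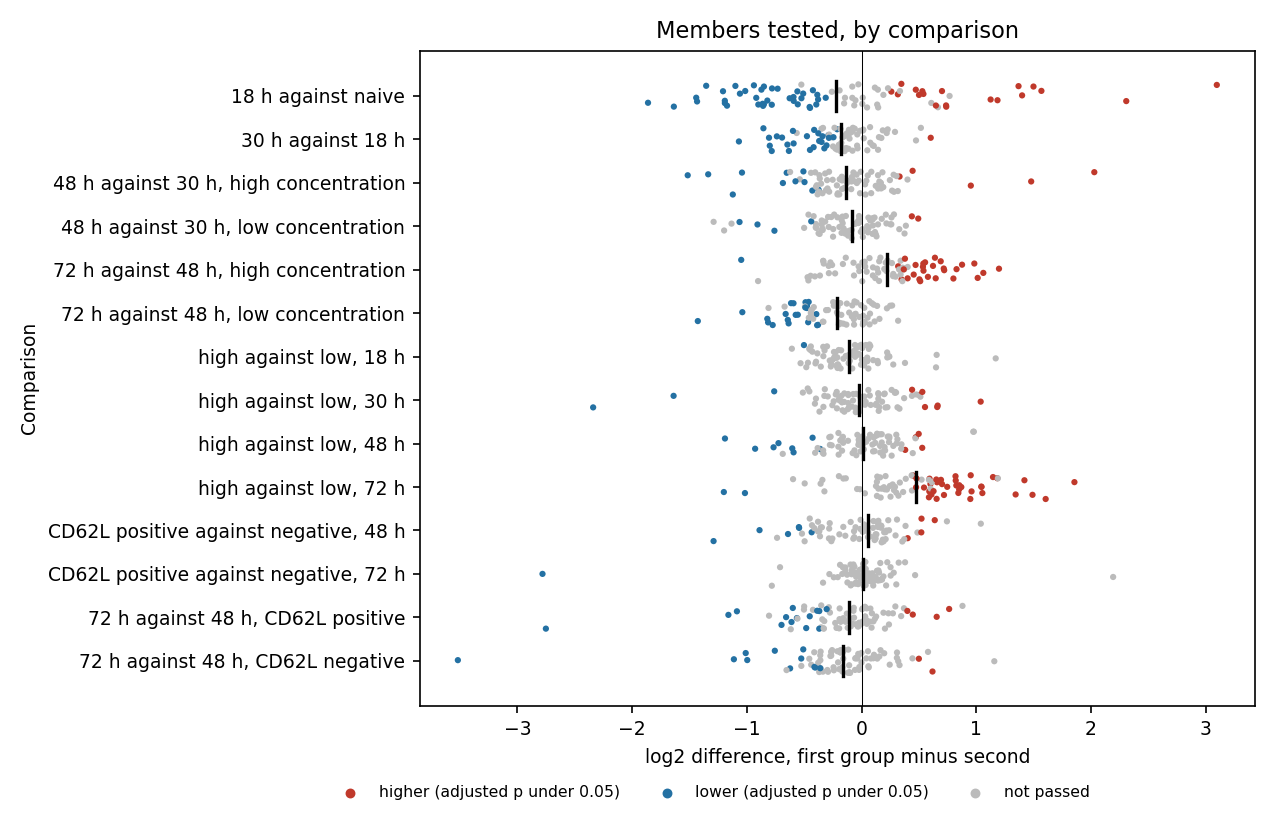
Log2 difference (x axis) of each of the 80 tested members in 14 comparisons (rows); red and blue points passed the test at an adjusted p below 0.05 and black lines mark the median over members. The medians lie furthest from 0 for high against low concentration at 72 h (0.48) and for 18 h against naive cells (-0.23), and in the latter the members run from -1.86 to 3.10.

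Between the starting concentrations few genes of any kind, members among them, were called at 18 h. The median difference at 18 h was -0.11 over members and 0.01 over all genes, with 56 of 80 members below 0. At 18 h, 0 members were higher and 1 was lower at the high concentration by edgeR's quasi-likelihood test, beside 1.15% and 0.725% of all genes (1.87% in all), and at an unadjusted p below 0.05 it was 2 higher and 15 lower. The 1 member was Rps14, at 6893, 10190.3 and 6819.5 CPM at the high and 10831, 12122 and 10905 CPM at the low concentration (log2 difference -0.50 ± 0.13 (SE), adjusted p = 0.030). These libraries did not overlap, but the call was lost in 5 of 6 fits that left out 1 library (adjusted p of up to 0.29, without 18 h high replicate 3). The count was 5 without 18 h high replicate 2 and 0 without any of the other libraries. DESeq2 called 0 higher and 2 lower, and a fit of these 6 libraries alone called 14. The summed CD8 T and NK cell markers were at 68.0 to 96.2 CPM at the high and 47.3 to 62.8 CPM at the low concentration.

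At 30 h, 7 members were higher and 3 lower at the high concentration, beside 4.63% and 3.93% of all genes (8.56% in all). The summed CD8 T and NK cell markers were at 37.5 to 63.5 CPM at the high and 30.0 to 35.4 CPM at the low concentration. Rps12 was at 7610.2, 10091 and 12928 CPM at the high and 4729, 4772 and 5407 CPM at the low concentration (log2 difference 1.04 ± 0.24 (SE), adjusted p = 0.0063). Rpl39 was lower, at 120.3, 245 and 109 against 786, 815 and 817 CPM (log2 difference -2.34 ± 0.50 (SE), adjusted p = 0.0034), and Rpl19 was lower at 1047, 1392 and 1077 against 1999, 2033 and 1933 CPM (log2 difference -0.76 ± 0.17 (SE), adjusted p = 0.0034). The groups were apart for all 3. With 1 library left out, calls were lost for Rps12 [1.04] in 1 of 6 (highest adjusted p = 0.052, without 30 h high replicate 3), Rpl23a [0.66] in 1 of 6 (highest adjusted p = 0.10, without 30 h high replicate 1), Rpl38 [0.66] in 2 of 6 (highest adjusted p = 0.16, without 30 h high replicate 1), Rpl36 [0.55] in 3 of 6 (highest adjusted p = 0.090, without 30 h high replicate 3) and Rpl22l1 [-1.64] in 4 of 6 (highest adjusted p = 0.14, without 30 h high replicate 3). The count fell from 10 to 4 without 30 h high replicate 1 and to 5 without 30 h high replicate 3 or 30 h low replicate 1, and without TMM scaling it was 7 higher and 7 lower.

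At 48 h, 4 members were higher and 8 lower at the high concentration, a smaller part than among all genes, where 13.9% were higher and 12% lower (25.9% in all). The 3 lowest were outside the core: Rpl7l1 was at 70.5, 69.9 and 61.5 CPM against 124, 185 and 151 CPM (log2 difference -1.19 ± 0.17 (SE), adjusted p = 1.3e-07), Rps19bp1 at 60.5, 75.3 and 83.8 against 108, 149.6 and 163 CPM (log2 difference -0.93 ± 0.18 (SE), adjusted p = 0.00010) and Rps27l at 199, 207 and 238 against 435, 318 and 347 CPM (log2 difference -0.77 ± 0.23 (SE), adjusted p = 0.012). Among core members Rpl7a was lower, at 3088, 2911 and 2304 against 3872, 4700.4 and 5140.3 CPM (log2 difference -0.72 ± 0.13 (SE), adjusted p = 1.6e-05), and Rps14 higher, at 6268, 6227 and 6298 against 5208, 3929 and 4166 CPM (log2 difference 0.50 ± 0.13 (SE), adjusted p = 0.0037). None of the 5 overlapped. Calls were lost with 1 library left out for Rps27l [-0.77] in 2 of 6 (highest adjusted p = 0.058, without 48 h low replicate 1), Rps23 [0.53] in 3 of 6 (highest adjusted p = 0.21, without 48 h high replicate 3), Rpl37rt [0.47] in 5 of 6 (highest adjusted p = 0.15, without 48 h low replicate 2) and Rps15 [0.38] in 5 of 6 (highest adjusted p = 0.18, without 48 h low replicate 3), and the count was 6 without 48 h low replicate 2 or 3 and 7 without 48 h high replicate 1. With the second number as a term 7 members were called.

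At 72 h more members were higher than lower at the high concentration. Of 80 members, 37 were higher and 2 lower, beside 13% higher and 13.5% lower among all genes (26.5% in all), and the median was 0.48 for members and 0.01 for all genes. In the small subunit 14 of 32 and in the large subunit 23 of 48 members were higher. The counts were 36 and 2 without TMM scaling, 38 and 2 with factors computed without the members and 39 and 2 with DESeq2. Every library at the high concentration has the second number 1 and every one at the low the second number 2, and these cannot be told apart. The summed CD8 T and NK cell markers were also higher at the high concentration, at 31.8 to 37.9 CPM against 14.2 and 15.6 CPM. Their part was not tested. In cultures of the middle concentration at 72 h, the members' share was 24.7 to 26.7% in 4 sorted libraries with the number 1 and 27.1 and 28.3% in 2 with the number 2.

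Rpl27a was at 1675, 1067 and 1383 CPM at the high and 435 and 468 CPM at the low concentration (log2 difference 1.61 ± 0.22 (SE), adjusted p = 5e-07). Rps16 was at 2679.7, 1892 and 2558 against 864 and 828 CPM (log2 difference 1.49 ± 0.19 (SE), adjusted p = 1.7e-08), and Rps14 at 13779, 12806 and 11333 against 4619 and 4825 CPM (log2 difference 1.42 ± 0.16 (SE), adjusted p = 6.3e-10). All 3 were far apart between the concentrations, and at the high concentration Rps14 reached at most 13779 CPM where the lowest naive library had 28176. Rpl19 (log2 difference 1.34 ± 0.20 (SE), adjusted p = 1.8e-06), Rpl35 (log2 difference 1.18 ± 0.23 (SE), adjusted p = 0.00019) and Rpl22 (log2 difference 1.05 ± 0.25 (SE), adjusted p = 0.0011) were higher as well. The other core members that were higher included Rpl10a, Rpl13, Rps21, Rps23, Rpl32, Rpl13a, Rpl17, Rps15, Rpl36, Rplp2, Rpl12, Rpl18, Rps18, Rps27a, Rps10, Rps13, Rplp0, Rps6, Rps3a1, Rpl7, Rpl24, Rpl14, Rpl3, Rpl29, Rpsa, Rps9 and Rpl7a, at 0.45 to 1.15.

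The 2 members that were lower at 72 h at the high concentration were paralogues. Rpl7l1 was at 32.1, 35.3 and 29.6 CPM against 78.2 and 70.8 CPM (log2 difference -1.20 ± 0.21 (SE), adjusted p = 1.5e-05) and Rps27l at 155, 181 and 132 against 275 and 356 CPM (log2 difference -1.02 ± 0.26 (SE), adjusted p = 0.0034). Neither overlapped, but the call of Rps27l was lost without 72 h low replicate 2 (adjusted p = 0.074) and with the second number as a term (0.10). Of the higher members, Rpl36al overlapped between the groups, and Rpl22l1, at 228, 88.6 and 139.6 against 38.8 and 45.4 CPM, lost its call in 3 of 5 fits that left out 1 library (adjusted p of up to 0.12, without 72 h low replicate 1).

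The difference between high and low concentration was not the same at 18 and 72 h. All 18 h libraries have the second number 1, while at 72 h this number and the concentration cannot be told apart. In the test of the change of the high minus low difference from 18 to 72 h, 34 of 80 members were higher and 2 lower. Among all genes it was 7.1% and 9.22% (16.3% in all), and the median was 0.57 for members and -0.01 for all genes. The change was 2.14 ± 0.29 (SE) for Rpl27a (adjusted p = 6.4e-07), 1.92 for Rps14 (5.4e-10), 1.88 for Rps16 (7.1e-08) and 1.79 for Rpl19 (2.7e-06). It was -1.14 for Rpl7l1 (0.0015) and -1.01 for Rps27l (0.044), which lost its call in 7 of 11 fits with 1 library left out (adjusted p of up to 0.20, without 72 h low replicate 2). Without TMM scaling the median of all genes was -0.16 and 28 members were higher and 4 lower.

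Members that fell early were among those higher at the high concentration later. The 18 h against naive and the 72 h high against low comparisons share no library. Of the 38 members that fell at 18 h, 24 were higher and 0 lower at the high concentration at 72 h, which is 24 of the 37 higher there. Of the 19 that rose at 18 h, 5 were higher and 2 lower, and of the 23 others 8 were higher. Over all genes tested 13% were higher and 13.5% lower at 72 h, and their overlap with the 18 h calls is not given here. Across the 80 members Pearson's r between the log2 differences was -0.59 and Spearman's rho -0.53 (-0.55 and -0.54 over 75 core members), where over all 9239 genes they were -0.22 and -0.28. For 18 h against naive and 72 h against 48 h at the high concentration, r was -0.70 and rho -0.69 across members, and -0.49 and -0.52 over all genes. For 72 h against 48 h at the low concentration r was -0.40 across members and -0.56 over all genes. Genes of 1 library share its depth and composition, so these values are descriptions across genes with no test.

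**Figure D5:**
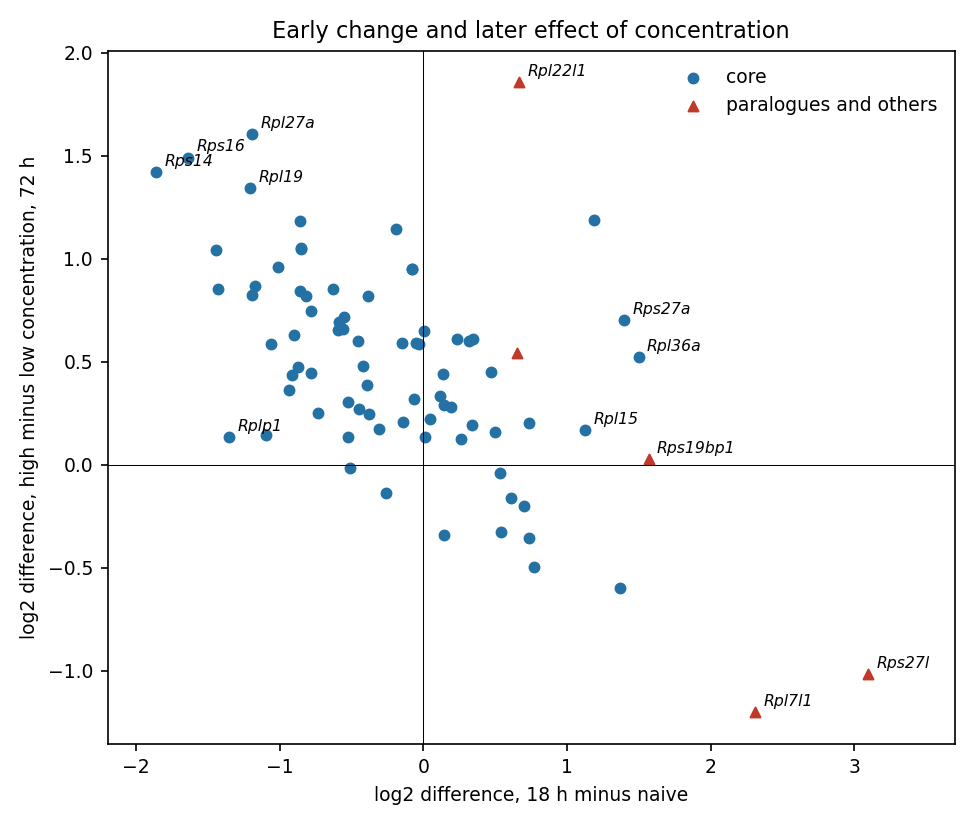
Log2 difference of 18 h minus naive cells (x axis) against high minus low concentration at 72 h (y axis) for the 80 tested members, with core members as circles and paralogues and others as triangles. Rps14, Rps16, Rpl19 and Rpl27a lie at the upper left, Rpl7l1 and Rps27l at the lower right, and Pearson's r is -0.59.

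CD62L marks T cells that can still enter lymph nodes. At 48 h, 4 members were higher and 6 lower in CD62L+ than in CD62L- cells, beside 7.23% and 7.28% of all genes (14.5% in all). The summed B cell markers were at 12.9 to 14.9 CPM in CD62L+ and 4.89 to 9.08 CPM in CD62L- cells. Rps27l was lower, at 259, 237 and 255 against 431, 959.9 and 439.5 CPM (log2 difference -1.29 ± 0.23 (SE), adjusted p = 0.00012), and so was Rpl38, whose loss alters which mRNAs are translated in the embryo, at 1522, 1588 and 1354 against 2113, 3676 and 2479 CPM (log2 difference -0.89 ± 0.18 (SE), adjusted p = 0.00058). The stalk proteins Rplp1 and Rplp0 were lower, with log2 differences of -0.54 and -0.43 (adjusted p = 0.0070 and 0.0085). Their partner Rplp2 was not called and lay the other way, with means of 6287 CPM in CD62L+ and 5434 CPM in CD62L- cells. Rps27a was at 2549, 2712 and 3034 against 1492, 2322 and 1511 CPM (log2 difference 0.64 ± 0.18 (SE), adjusted p = 0.016). For Rps27l, Rpl38 and Rps27a the groups did not overlap. Fits without 1 library lost the calls of Rps27a [0.64] in 3 of 6 (highest adjusted p = 0.082, without 48 h CD62L- replicate 3), Rps16 [0.52] in 3 of 6 (highest adjusted p = 0.11, without 48 h CD62L- replicate 2), Rps3a1 [0.52] in 4 of 6 (highest adjusted p = 0.26, without 48 h CD62L- replicate 2), Rpl10a [0.40] in 4 of 6 (highest adjusted p = 0.12, without 48 h CD62L- replicate 2), Rpl35 [-0.64] in 4 of 6 (highest adjusted p = 0.15, without 48 h CD62L- replicate 3) and Rps19bp1 [-0.55] in 4 of 6 (highest adjusted p = 0.26, without 48 h CD62L- replicate 1). The count was 3 without 48 h CD62L+ replicate 3, 6 without 48 h CD62L+ replicate 2, 16 without 48 h CD62L- replicate 1 and 6 with the second number as a term.

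At 72 h, 0 members were higher and 1 was lower in CD62L+ cells by edgeR's quasi-likelihood test, beside 0.682% and 0.844% of all genes (1.53% in all). The summed CD8 T and NK cell markers were at 25.3 to 29.4 CPM in CD62L+ and 13.1 to 20.3 CPM in CD62L- cells, and the summed myeloid markers at 3.42 to 27.1 and 0 to 1.62 CPM. DESeq2 called 0 higher and 2 lower, and at an unadjusted p below 0.05 there were 1 higher and 3 lower. The 1 was Rps15a, at 1.37, 0 and 0.576 against 6.18, 3.28 and 5.68 CPM (log2 difference -2.78 ± 0.69 (SE), adjusted p = 0.021), which has 294 counts in the whole table and lost its call in 4 of 6 fits with 1 library left out (adjusted p of up to 0.13, without 72 h CD62L+ replicate 2). Rps27l was at 197, 158 and 175 against 256, 379.7 and 276 CPM, apart in every library, with an adjusted p of 0.086.

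Between 48 and 72 h a smaller part of the members than of all genes rose in both sorted populations. Rpl7l1 and Rps19bp1 were called lower in each. In CD62L+ cells 4 members rose (5%) and 14 fell (17.5%), beside 11.9% and 12.3% of all genes (24.2% in all). In CD62L- cells 2 rose (2.5%) and 11 fell (13.75%), beside 12.5% and 12% (24.6% in all), so the part that fell was near that of all genes. The summed B cell markers were at 12.9 to 14.9 CPM at 48 h and 6.84 to 8.42 CPM at 72 h in CD62L+ cells. Rpl7l1 fell from 84.0, 79.6 and 103 to 47.2, 39.8 and 38.6 CPM in CD62L+ cells (log2 difference -1.09 ± 0.18 (SE), adjusted p = 5.1e-06) and from 115, 108 and 120.1 to 60.0, 38.5 and 60.0 CPM in CD62L- cells (log2 difference -1.11 ± 0.17 (SE), adjusted p = 1.9e-06). Rps19bp1 fell by 1.16 and 1.00 on the log2 scale (adjusted p = 1.4e-05 and 6.5e-05). Neither overlapped between times in either population. Rps2 (-0.66 and -0.62) and Rpl4 (-0.61 and -0.53) were also called lower in both. In CD62L- cells Rps27l fell by 1.01 (adjusted p = 0.0011). Rps15a, with 294 counts in the whole table, was called lower in CD62L+ cells (-2.75). Rps23 rose in CD62L+ cells, from 829, 907 and 1015 to 1649, 1461 and 1562 CPM (log2 difference 0.76 ± 0.17 (SE), adjusted p = 0.00064).

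Several of these calls depended on which libraries were in the fit. In CD62L+ cells calls were lost with 1 library left out for Rpl35 [0.66] in 2 of 6 (highest adjusted p = 0.083, without 72 h CD62L+ replicate 1), Rps20 [0.45] in 6 of 6 (highest adjusted p = 0.11, without 48 h CD62L+ replicate 3) and Rps14 [0.40] in 4 of 6 (highest adjusted p = 0.11, without 48 h CD62L+ replicate 1), and in CD62L- cells for Rpl22 [0.62] in 3 of 6 (highest adjusted p = 0.50, without 72 h CD62L- replicate 1) and Rps6 [0.50] in 2 of 6 (highest adjusted p = 0.21, without 48 h CD62L- replicate 2). The count was 11 in CD62L+ cells without 48 h CD62L+ replicate 2 or 72 h CD62L+ replicate 2, and 8 in CD62L- cells without 72 h CD62L- replicate 1. A fit of the compared libraries alone called 37 members in CD62L+ and 2 in CD62L- cells, and without TMM scaling 4 rose and 10 fell in CD62L- cells. Rpl34, called lower in CD62L- cells (-3.52), had at most 6.06 CPM in these libraries and overlapped between times.

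The paralogue pairs are set side by side. Rpl22 and Rpl22l1 can replace each other in the large subunit. Rpl22 was at 66.4, 42.9 and 79.7 CPM in naive cells and highest at 72 h at the high concentration, at 82.9, 91.2 and 98.9 CPM, above all naive libraries. Rpl22l1 spread widely within groups, from 15.2 to 84.0 CPM in CD62L- cells at 48 h and from 88.6 to 228 CPM at 72 h at the high concentration, so its values are uncertain. For Rps27 only 95 counts were found, with 3.09, 4.98 and 9.03 CPM in naive cells and 0 to 3.73 CPM elsewhere, so Rps27 and its paralogue Rps27l cannot be compared.

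Rpl7 rose with Rpl7l1 at 18 h, by 0.35 (adjusted p = 0.023) and was higher at 72 h at the high concentration by 0.61 (0.0078), where Rpl7l1 was lower. Rpl36a and Rpl36al, which encode nearly identical proteins, both rose at 18 h, by 1.50 and 0.65. After that Rpl36al fell between 18 and 30 h (log2 difference -0.42 ± 0.12 (SE), adjusted p = 0.0077), while Rpl36a did not pass the test (log2 difference 0.07 ± 0.16 (SE), adjusted p = 0.78). Whether the pairs differed in these changes was not tested. Rpl39l and Rps4l, known from testis and as a copy of Rps4x, stayed at or below 8.60 and 6.72 CPM in all libraries. Rpl3 and Rpl10 stood beside paralogues with 5 and 0 counts: Rpl3 was at 3337, 3464 and 3303 CPM at 72 h at the high and 2095 and 2377 CPM at the low concentration (log2 difference 0.59 ± 0.12 (SE), adjusted p = 0.00016), and Rpl10 fell by 0.31 at 18 h and by 0.41 from 18 to 30 h.

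Rps6 passed the test in 4 of the 15 comparisons, and the Mdm2-binding members Rpl5 and Rpl11 in fewer. Rps6 was at 645, 913 and 988 CPM in naive cells, 1213, 850.2 and 1003 CPM at 72 h at the high and 578 and 723 CPM at the low concentration (log2 difference 0.65 ± 0.18 (SE), adjusted p = 0.0060). Its 72 h groups did not overlap, while the naive range covered part of both. Rpl5 passed edgeR's quasi-likelihood test in 0 of the 15 comparisons, and in 0 also at an unadjusted p below 0.05, with 13.4 to 50.3 CPM over the libraries and 1893 counts in all. Rpl11 passed it in 1, the fall at 18 h from 4418, 4738 and 4459.6 to 2841, 3587, 3156, 3447, 3489 and 3440.0 CPM. The counts of Rpl5 are far lower than those of Rpl11 and uncertain where copies share reads, which limits what can be seen of Rpl5. Rpsa, also known as the laminin receptor, fell by 0.42 at 18 h and was higher by 0.48 at the high concentration at 72 h (adjusted p = 0.00017 and 0.0043).

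Genes related to the members were counted from lists. Of all genes tested, 32.3% were higher and 33.6% lower at 18 h (median 0.00). At 72 h 13% were higher and 13.5% lower at the high concentration (median 0.01). The ribosomal protein Fau, made as a fusion to a ubiquitin-like protein and so outside the symbol rule, fell at 18 h (log2 difference -1.59 ± 0.18 (SE), adjusted p = 4.5e-09) and was higher at the high concentration at 72 h (log2 difference 1.54 ± 0.26 (SE), adjusted p = 3.6e-05). Of 26 other TOP mRNAs tested, 16 rose and 1 fell at 18 h (median 0.73), and 9 were higher and 2 lower at the high concentration at 72 h (median 0.10). The 1 that fell was Tpt1 (log2 difference -1.46 ± 0.21 (SE), adjusted p = 4.9e-07), which was also higher at 72 h (log2 difference 1.15 ± 0.29 (SE), adjusted p = 0.0037), while the elongation factor Eef1a1 did not pass the test at 18 h (log2 difference -0.03 ± 0.11 (SE), adjusted p = 0.84). Of 10 chaperones that carry new ribosomal proteins, 7 rose and 0 fell at 18 h (median 1.83), and 1 was higher and 2 lower at 72 h (median -0.17). Those that rose included Heatr3, a carrier of Rpl5 (log2 difference 3.23 ± 0.22 (SE), adjusted p = 3.3e-18), and Grwd1, a carrier of Rpl3 (log2 difference 1.99 ± 0.19 (SE), adjusted p = 1.8e-13). The lists of chaperones and of other TOP mRNAs share some genes that rose at 18 h, which are counted in both.

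Of 17 regulators of TOP mRNAs, 6 rose and 5 fell at 18 h (median 0.38), shares close to those of all genes (32.3% and 33.6%). At 72 h 1 was higher and 1 lower (median 0.20), beside 13% and 13.5% of all genes. Larp1, which binds the TOP motif, rose (log2 difference 1.42 ± 0.16 (SE), adjusted p = 2.1e-11). Eif4ebp1, an mTOR target that holds back cap-dependent translation, rose at 18 h (log2 difference 1.28 ± 0.15 (SE), adjusted p = 1.9e-10) and was the 1 that was higher at the high concentration at 72 h (log2 difference 1.64 ± 0.17 (SE), adjusted p = 1.7e-10). The lower one was Mlst8, a subunit of the mTOR complexes (log2 difference -1.07 ± 0.35 (SE), adjusted p = 0.018). Of 71 genes tested for proteins of the mitochondrial ribosome, 59 rose and 0 fell at 18 h (median 1.03), beside 32.3% and 33.6% of all genes. At the high concentration at 72 h 2 were higher and 27 lower (median -0.40), beside 13% and 13.5%. The pseudogene symbols left out by the rule held 0.0299 to 0.0536% of the counts.

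The members that fell and rose at 18 h were set beside features of their transcripts. With transcripts of GENCODE M21 for 79 of the 80 tested members, the GC content ranged from 40.6 to 62.4% (median 51.6%, beside 50.9% over 8675 genes tested with a value). The correlation of the 18 h difference with GC content was r = -0.36 and rho = -0.38 across these members, and -0.13 and -0.16 across the 8675 genes. With transcript length it was r = 0.05 across members. These values are descriptions across genes that share their libraries, with no test. An annotated start was a C followed by at least 4 C or T letters in 7 of 27 members with a promoter that fell at 18 h, 1 of 16 that rose and 4 of 18 that did not pass the test. In the wider search within 10 bases of the start, a run was found in 13 of the 27, 7 of the 16 and 6 of the 18. A link between the motif and the direction was not tested. In Rpl27a, which fell and later was higher at the high concentration, the run covered the start, and in Rps16, which moved alike, none was found. Rpl35 with such a start fell by 0.86 at 18 h, while Rps6 with such a start did not pass the test.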

How the data were processed

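RNA from sorted cells was captured with oligo(dT), copied with indexed primers that carry molecular identifiers and amplified by transcription, per the labels' protocols. The authors deposited 1 table of whole-number counts per gene for each experiment. The submitters' processing notes name HTSeq 0.9.1, the aligners STAR 2.5.2b and HISAT 0.1.5, genome mm9, and for the reads bcl2fastq 2.17.1.14 and FastQC 0.11.7. The annotation, the strand setting, the use of the molecular identifiers and the aligner behind each table were not given in the sources used here. Reads come from 3′ ends and are not scaled by length, so levels are compared between libraries and not between genes.

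The 38 libraries of the second experiment (587118 to 3359875 counts each) were fitted together over 13 groups with edgeR 4.0.16 in R 4.3.3, as 15 comparisons. Symbols passed the filter on low counts with filterByExpr at a minimum of 10, TMM factors scaled the libraries, and the quasi-likelihood test with 25 residual degrees of freedom gave p-values, adjusted by Benjamini-Hochberg over 9239 genes with a threshold of 0.05. CPM values use TMM factors. The fit was tested on simulated data. Alternatives were no TMM, TMM without the members, no filter on low counts, the second number of the titles as a term, a replicate block, the compared groups alone, DESeq2 1.42.0 and leaving out each library. Transcript features came from GENCODE M21 and start sequences from the RefSeq table, read with Python 3.11.15 and pandas 2.3.3.

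Members named in the text were, in each comparison, up to 4 of the largest rises and 4 of the largest falls past the test, the paralogue pairs and specialised members, the 6 with the widest and the 6 with the narrowest range over groups, and the 5 with the highest and the 5 with the lowest counts. A few genes are not reported by name here but stay in the counts, medians and shares. Members and lists were chosen with earlier results of these data known.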

Additional observations from a re-analysis of the deposited data

Results flagged for a closer look

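The difference of the members between high and low starting concentration was not the same at 18 and 72 h, in the test of its change. In all, 36 members passed that test. Among the largest changes on the log2 scale were 2.14 for Rpl27a, 1.92 for Rps14, 1.88 for Rps16 and 1.79 for Rpl19, and -1.14 for Rpl7l1 and -1.01 for Rps27l. At 18 h all libraries carry the second number 1, and at 72 h it is 1 in every high-concentration and 2 in every low-concentration library, so the number and the concentration at 72 h cannot be told apart. With the number as a term, which the other groups estimate, 35 members were higher and 1 lower.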

How the results depend on the processing

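No called result changed direction in any setting run. Counts of members called in the 15 comparisons moved by over 1.5 times in some settings, and in each the cause was not tested. Without a filter on low counts, the count was 27 in place of 16 for 48 h against 30 h at the high concentration and 12 in place of 6 at the low, 3 in place of 1, 17 in place of 10 and 19 in place of 12 for high against low at 18, 30 and 48 h, 21 in place of 10 and 2 in place of 1 for CD62L at 48 and 72 h, and 23 in place of 13 for 72 h against 48 h in CD62L- cells. With the second number as a term it was 3 for 48 h against 30 h and 13 in place of 21 for 72 h against 48 h at the low concentration, 2 and 7 for high against low at 18 and 48 h, and 6 for CD62L at 48 h. Chosen after seeing the data, libraries of the second number 2 alone gave 0 and 2 for the same low-concentration steps, 1 for high against low at 48 h, 0 for CD62L at 72 h and 6 for 72 h against 48 h in CD62L- cells, and those of the second number 1 alone gave 3 for high against low at 18 h and 3 for CD62L at 72 h. Library totals without TMM and DESeq2 each called 2 for high against low at 18 h, and DESeq2 called 2 for CD62L at 72 h. The compared groups alone gave 14 for high against low at 18 h, and 37 and 2 for 72 h against 48 h in CD62L+ and CD62L- cells.

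Leaving out 1 library at a time, the count ranged from 52 to 58 for 18 h against naive, 21 to 29 for 30 h against 18 h, 9 to 21 and 2 to 12 for 48 h against 30 h at the high and the low concentration, and 22 to 26 and 9 to 26 for 72 h against 48 h. For high against low it ranged from 0 to 5, 4 to 14, 6 to 17 and 28 to 42 at the 4 times and 27 to 42 for the change. For CD62L it ranged from 3 to 16 at 48 h and 0 to 2 at 72 h, and for 72 h against 48 h from 11 to 15 in CD62L+ and 8 to 17 in CD62L- cells. Where 1 library of the 72 h low-concentration group was left, it was assumed to vary like the other groups.

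Libraries of 1 replicate number did not deviate together (median correlation of deviations 0.0019 over 222 pairs, from -0.45 to 0.49), and 14 of 38 libraries were closest to their own number, so the numbers were not taken as a pairing. With a replicate block the counts were 57, 25, 16, 6, 29 and 18 for the 6 steps in time from naive to 72 h, 1, 11, 13 and 39 for high against low, 34 for the change, 10 and 1 for CD62L, and 18 and 14 for 72 h against 48 h in CD62L+ and CD62L- cells, all within 1.5 times. A count without mitochondrially encoded genes was not run, since no symbol starts with mt-. Over the named members, 6935 alternative values kept their direction and side of the threshold, 279 lost the call and 171 gained one. Rpl30, Rps27, Rpl34, Rps15a, Rpl39l and Rps4l had under 300 counts in all, which limits what can be seen of them.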
